A study of Mus musculus with 12 samples.

Results

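The IL-12 and IL-23 family was followed through RNA sequencing of whole mouse colon. Its 8 genes, chosen by name, were Il12a, Il12b, Il23a, Ebi3, Il27, Il12rb1, Il12rb2 and Il23r, of 54532 genes in the deposited table and 24102 genes tested. The 12 libraries formed 4 groups of 3. Tmem173fl/fl mice carried loxP sites around Tmem173, the gene of the DNA-sensing adaptor STING, and no Cre. Tmem173iΔmye mice (Tmem173fl/fl with Lyz2-Creert2) carried in addition a tamoxifen-dependent Cre driven by Lyz2, which acts in monocytes, macrophages and neutrophils and in only some dendritic cells, so that other colon cells kept the gene. Mice of either genotype were left untreated or were given 7 days of dextran sulfate sodium (DSS) in the drinking water. By the authors' methods 1 day of water followed. DSS is an agent toxic to the epithelium of the colon. Mice of every group had received 5 tamoxifen injections, were on the C57BL/6N background and were 6 to 8 weeks old. Replicates were numbered 1, 2 and 3, except in the colitic Tmem173iΔmye group, whose libraries were 1, 2 and 5. The titles name separate samples, and the p-values measure the spread between these samples.

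Members of this family are built by sharing chains. Il12b encodes p40, which pairs with p35 (Il12a) to form IL-12 and with p19 (Il23a) to form IL-23, whereas Ebi3 pairs with p28 (Il27) to form IL-27 and with p35 to form IL-35. IL-12 is read by Il12rb1 with Il12rb2 and drives STAT4 and interferon-γ in Th1 and NK cells, whereas IL-23 is read by Il12rb1 with Il23r and sustains STAT3 and IL-17 and IL-22 in Th17 cells, γδ T cells and type 3 innate lymphoid cells. The cytokine chains come mainly from dendritic cells and macrophages, so in a whole colon library they are a small part of the RNA.

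The libraries held 13823237 to 18718915 counts each. The targeted gene was counted 324, 212 and 365 times in untreated Tmem173fl/fl libraries, 283, 244 and 355 times in untreated Tmem173iΔmye libraries, 783, 929 and 553 times in colitic Tmem173fl/fl libraries and 671, 382 and 512 times in colitic Tmem173iΔmye libraries, each in replicate order. The genotypes overlapped in both treatments, and Tmem173 differed by -0.28 on the log2 scale between colitic genotypes (SE 0.26, adjusted p = 0.602). Which cells this Tmem173 RNA came from was not tested. Colitic Tmem173iΔmye replicate 5 stood apart from the others, at 114 on the second principal component of log2 FPKM against -31.6 to 26.5. Xist and Y-linked counts put replicate 3 of both untreated groups and this replicate 5, 3 libraries in all, in a female pattern and the others in a male pattern. Summed levels of pancreas genes ran from 39.1 to 3393 FPKM across libraries and were highest in colitic Tmem173iΔmye replicate 1.

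Across the comparisons, members of the family were called only in Tmem173fl/fl mice given DSS. Of the 3 receptor chains Il23r rose from near 0 counts, its neighbour Il12rb2 fell, a call that held in 2 of 6 fits that each left out 1 library, and Il12rb1 was not called. Il27 was the only cytokine chain called higher, a call that held in 0 of those 6 fits. No member was called in Tmem173iΔmye mice given DSS or between genotypes, where few genes of any kind were called. Of all genes tested, 2.08% were called for DSS in Tmem173iΔmye mice, 0% between untreated genotypes and 2.81% between colitic genotypes. Here a gene was called when its adjusted p was under 0.05 and its log2 fold change was 1 or more in either direction, in edgeR's quasi-likelihood test with Benjamini-Hochberg adjustment over all 24102 genes. In Tmem173fl/fl mice given DSS 2 members were called higher and 1 lower, 37.5% of the members, where 22.5% of all genes tested were called (14.9% higher and 7.61% lower). Leaving out any 1 library left 1 to 2 members called. The median log2 fold change was 0.60 over the members and 0.03 over all genes tested. Of the 8 members 4 had groups that did not overlap, as did 49.3% of all genes tested. All 8 members passed the filter on low values (at least 0.1 FPKM in at least 3 libraries), but Il23r reached that level in only 4 libraries and Il23a in 5. Il23r passed through the colitic Tmem173fl/fl group, where it was high.

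**Figure D1:**
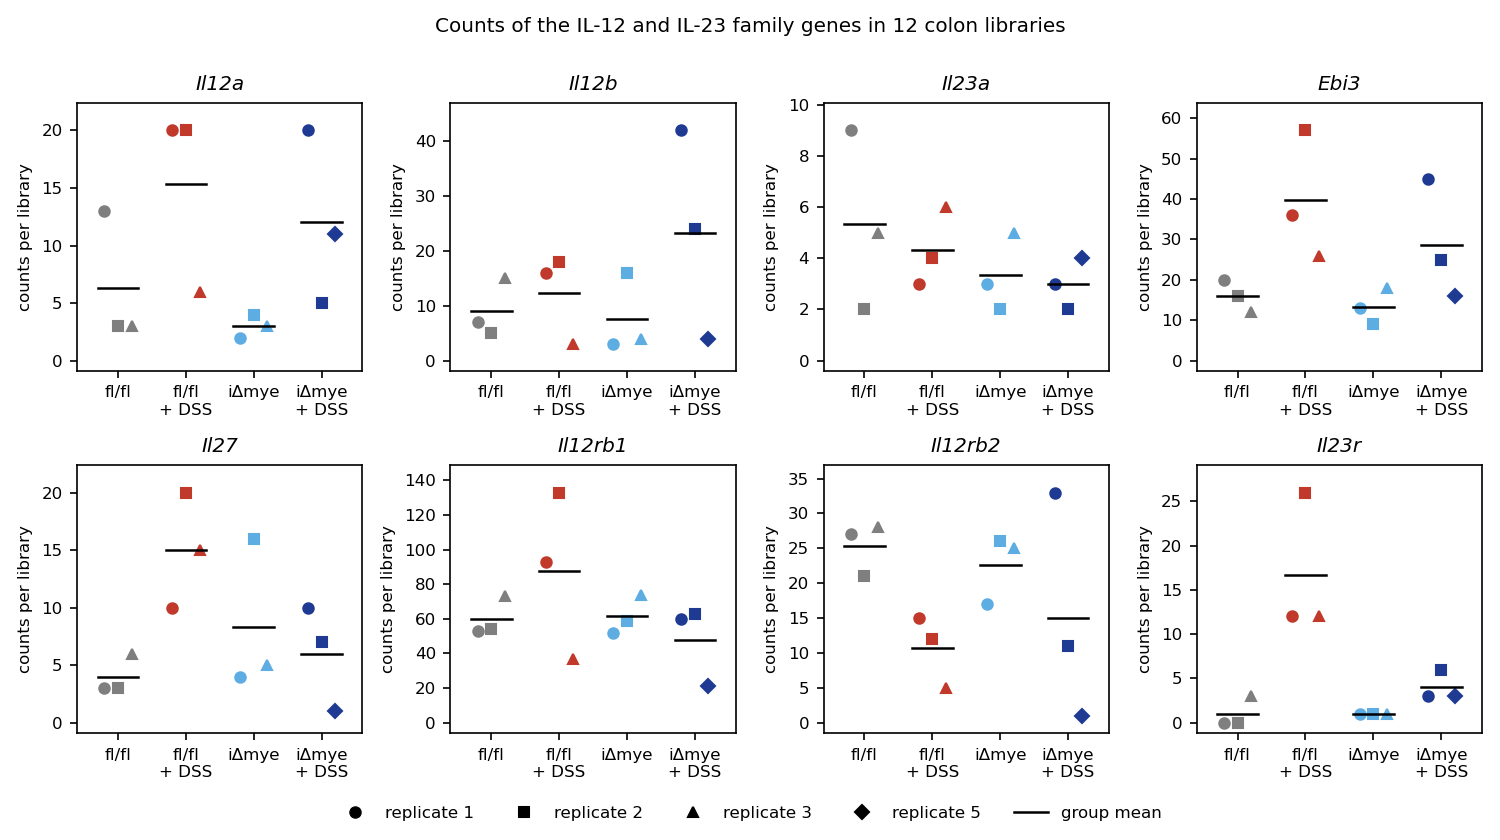
Counts per library (linear axes, a separate scale for each gene) of the 8 family genes in the 4 groups, with a point for each library shaped by its replicate number and a line for the group mean. Il23r sits at 0 to 3 counts in both untreated groups and at 12 to 26 in colitic Tmem173fl/fl mice, and Il12rb2 at 21 to 28 counts in untreated and 5 to 15 in colitic Tmem173fl/fl mice.

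Il12rb2 and Il23r lie next to each other on chromosome 6 of GRCm38, on the minus strand and 46743 bases apart. Il12rb2 (ENSMUSG00000018341) spans 67291318 to 67376188 with 17 merged exons, and Il23r (ENSMUSG00000049093) spans 67422932 to 67491855 with 11. Because these neighbours moved in opposite directions, the 250 bases upstream of their annotated starts are shown from RefSeq (GRCm38.p6, minus strand, 5′ to 3′). Windows were found for 5 of the 8 members (Il12a, Il12b, Ebi3, Il12rb2 and Il23r) and were searched on both strands for 5 motifs: NF-kB, the interferon-stimulated response element ISRE (in 2.98% of all windows), GAS (TTCNNNGAA), the core of the ROR response element (AGGTCA) and AP-1 (TGANTCA, in 6.75%). Capitals mark the matches.

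Il12rb2, chr6:67376189-67376438: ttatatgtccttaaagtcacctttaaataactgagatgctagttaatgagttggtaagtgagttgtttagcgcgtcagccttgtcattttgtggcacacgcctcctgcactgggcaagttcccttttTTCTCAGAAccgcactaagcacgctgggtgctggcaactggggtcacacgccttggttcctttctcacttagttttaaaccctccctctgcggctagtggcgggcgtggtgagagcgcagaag

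Il23r, chr6:67491856-67492105: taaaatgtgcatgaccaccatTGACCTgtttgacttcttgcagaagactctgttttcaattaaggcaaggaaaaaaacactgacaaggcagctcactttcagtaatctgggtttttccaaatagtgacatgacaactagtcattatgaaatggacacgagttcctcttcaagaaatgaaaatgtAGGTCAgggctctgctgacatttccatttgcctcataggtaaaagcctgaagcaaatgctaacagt

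The Il12rb2 window held a GAS match at bases -123 to -115 from the start, a motif found in 7.02% of 32851 promoter windows. The Il23r window held the ROR core at -229 to -224 on the opposite strand and at -66 to -61 on its own strand, letters found in 14.0% of the windows. Of the other members, Ebi3 held an NF-kB match at -44 to -35 (3.9% of windows), counted from a RefSeq start that differs from the start in the deposited table, and the Il12a and Il12b windows held none of the 5. A match describes the letters of these windows and shows no binding.

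Among the receptors, Il23r, the chain that makes a cell responsive to IL-23, had the widest change. It was counted 0, 0 and 3 times in untreated Tmem173fl/fl libraries and 12, 26 and 12 times in colitic ones. In Tmem173iΔmye mice it was counted once in each untreated library and 3, 6 and 3 times in the colitic ones. Every colitic Tmem173fl/fl library was above every other library. Summed over a group these were 3 counts (exact Poisson 95% interval 0.619 to 8.77) without DSS and 50 (37.1 to 65.9) with DSS in Tmem173fl/fl mice, and 3 (0.619 to 8.77) and 12 (6.20 to 21.0) in Tmem173iΔmye mice. Such intervals cover counting error only. The untreated group was at the floor, taken as 3 counts in each library, so Il23r was at least 4.36-fold higher with DSS in Tmem173fl/fl mice (adjusted p = 0.00990, exact two-sided permutation p = 0.1, the smallest that 3 against 3 can give). It was called whichever library was left out, at adjusted p 0.00706 to 0.0325. The filter on low values was not redone in those fits, and Il23r had passed it through the colitic Tmem173fl/fl group. The fit without untreated replicate 3, which is also the fit of male-pattern libraries, gave 0.00706 with an untreated group of 0 counts.

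In Tmem173iΔmye mice the colitic mean of Il23r was 1.42 times the floor, with replicates 1 and 5 at 3 counts, the floor itself. The groups did not overlap, and the adjusted p was 0.363 by edgeR. The 95% interval of the fitted log2 difference, -0.17 to 4.09, included no change. Between colitic genotypes Il23r averaged 0.899 ± 0.299 CPM (counts scaled to a common library total, SD, n = 3) with Tmem173 intact and 0.256 ± 0.102 CPM in the Tmem173iΔmye group. That is a log2 difference of -1.80 (95% interval -3.09 to -0.50), with an unadjusted p of 0.0123 and an adjusted p of 0.128 by edgeR. The 3 libraries of each genotype did not overlap, as for 26.8% of all genes tested, and 20.2% of genes had an unadjusted p of at most 0.05. Leaving out 1 library gave differences from -2.15 to -1.48 and adjusted p from 0.150 to 0.421, and the value without replicate 5 was -1.60. No interaction of DSS and genotype is given for Il23r, because both untreated groups were at the floor.

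Il12rb2, the chain that makes T and NK cells responsive to IL-12, went the other way in Tmem173fl/fl mice. It was counted 27, 21 and 28 times in untreated and 15, 12 and 5 times in colitic Tmem173fl/fl libraries, which did not overlap. It fell by 1.50 on the log2 scale (SE 0.44, adjusted p = 0.0224, exact two-sided permutation p = 0.1). This call was lost without untreated replicate 1 (adjusted p = 0.0626), untreated replicate 3 (0.0578), colitic replicate 2 (0.0539) or colitic replicate 3 (0.0560), and it ranged from 0.0155 to 0.121 over all alternatives. In Tmem173iΔmye mice Il12rb2 was counted 17, 26 and 25 times without DSS and 33, 11 and 1 times with DSS. The colitic libraries of this group lay on both sides of the untreated ones, with replicate 5 the lowest of all 12 libraries and replicate 1 the highest. The log2 difference with DSS was -0.42 (95% interval -2.24 to 1.40, adjusted p = 0.857) and was 0.18 without replicate 5 and -1.86 without replicate 1. Between colitic genotypes it was 0.81 (95% interval -1.32 to 2.93), and -0.66 without colitic Tmem173iΔmye replicate 1.

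Of the exon bases of Il12rb2 1519 (40.0%) are shared with Serbp1, an RNA-binding protein gene on the opposite strand. Serbp1 was counted 2070 to 4686 times per library and differed by -0.21 with DSS in Tmem173fl/fl mice (adjusted p = 0.275). The library kit does not mark strand, and whether the counting used strand was not given in the sources used here, so reads in the shared bases could not be assigned to either gene.

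Il12rb1 (ENSMUSG00000000791, chromosome 8, 70808449 to 70821424, plus strand) is the chain that both receptors use, and it had the most counts of the family. It was counted 53, 54 and 73 times in untreated and 93, 133 and 37 times in colitic Tmem173fl/fl libraries. In Tmem173iΔmye mice it was counted 52, 59 and 74 times without and 60, 63 and 21 times with DSS. Colitic libraries spread to both sides of untreated ones in Tmem173fl/fl mice, and in Tmem173iΔmye mice 2 lay within the untreated range and replicate 5 below it. The replicates with the lowest T cell marker sums, colitic Tmem173fl/fl replicate 3 and colitic Tmem173iΔmye replicate 5, had the fewest Il12rb1 counts. The log2 difference with DSS was 0.26 (95% interval -0.50 to 1.01, adjusted p = 0.604) in Tmem173fl/fl mice and -0.24 (95% interval -1.26 to 0.78, adjusted p = 0.854) in Tmem173iΔmye mice.

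Of the cytokine chains, Il27, the p28 chain of IL-27 (ENSMUSG00000044701, chromosome 7, 126589010 to 126594941, minus strand), was called higher with DSS in Tmem173fl/fl mice. It was counted 3, 3 and 6 times in untreated and 10, 20 and 15 times in colitic Tmem173fl/fl libraries, with no overlap. The log2 fold change was 1.66 (95% interval 0.41 to 2.91, adjusted p = 0.0421, exact two-sided permutation p = 0.1). The call was lost when any of the 6 libraries was left out (adjusted p 0.0514 to 0.129, with log2 fold changes of 1.49 to 2.0), and in DESeq2 (0.0755). Over all alternatives the adjusted p ran from 0.0236 to 0.129. Il27 shares 103 exon bases, 10.1% of its own, with Apobr, a lipoprotein receptor gene on the opposite strand that was counted 30 to 391 times and rose by 2.82 in the same comparison (adjusted p = 2.33e-05).

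In Tmem173iΔmye mice Il27 was counted 4, 16 and 5 times without DSS and 10, 7 and 1 times with DSS. These libraries overlapped, and the log2 difference with DSS was -0.33 (95% interval -2.25 to 1.59, adjusted p = 0.897) and turned to 0.54 without untreated replicate 2 and to 0.22 without colitic replicate 5. Between colitic genotypes Il27 differed by -1.07 (95% interval -2.74 to 0.60, adjusted p = 0.454), by -0.55 without colitic Tmem173iΔmye replicate 5 and by -1.75 without its replicate 1. Its interaction of DSS and genotype was -1.93 (95% interval -4.19 to 0.33), with an unadjusted p of 0.0884 and an adjusted p of 0.353.

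Ebi3, the partner chain of p28 (ENSMUSG00000003206, chromosome 17, 55952640 to 55957022, plus strand), was counted 20, 16 and 12 times in untreated and 36, 57 and 26 times in colitic Tmem173fl/fl libraries. Every colitic library was above every untreated one. The log2 difference was 1.02 (95% interval 0.16 to 1.88), and its adjusted p of 0.0652 missed the threshold. It passed without untreated replicate 1 (adjusted p = 0.0446) and when library totals alone set the scale (0.0421), in a range of 0.0421 to 0.231 over the alternatives. In Tmem173iΔmye mice Ebi3 was counted 13, 9 and 18 times without and 45, 25 and 16 times with DSS, and only replicate 5 lay within the untreated range. That difference was 1.23 (95% interval 0.00 to 2.46, adjusted p = 0.320), and 1.58 without replicate 5. Between colitic genotypes Ebi3 differed by -0.18 (95% interval -1.28 to 0.92, adjusted p = 0.874). Gm16712, on the opposite strand, shares 270 of the exon bases of Ebi3 (23.4%) and had 1 to 16 counts.

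Il12b, the p40 chain of both IL-12 and IL-23 (ENSMUSG00000004296, chromosome 11, 44400063 to 44414033, plus strand), was not called in any comparison. It was counted 7, 5 and 15 times in untreated and 16, 18 and 3 times in colitic Tmem173fl/fl libraries, a log2 difference of 0.17 (95% interval -1.24 to 1.59, adjusted p = 0.861). In Tmem173iΔmye mice it was counted 3, 16 and 4 times without and 42, 24 and 4 times with DSS. Colitic Tmem173iΔmye replicates 1 and 2 were the highest of the 12 libraries, whereas replicate 5 lay within the untreated range. The log2 difference with DSS was 1.75 (95% interval -0.19 to 3.68, adjusted p = 0.374), 0.90 without colitic replicate 1 (adjusted p = 0.757), 2.29 without colitic replicate 5 (adjusted p = 0.0695) and 2.85 without untreated replicate 2 (adjusted p = 0.351), with 0.0695 to 0.757 over the alternatives. Between colitic genotypes Il12b averaged 0.641 ± 0.378 CPM in the Tmem173fl/fl group and 1.58 ± 1.38 CPM in the Tmem173iΔmye group (SD, n = 3 each). The log2 difference was 1.25 (95% interval -0.64 to 3.13, adjusted p = 0.440) and was 0.37 without colitic Tmem173iΔmye replicate 1 and 1.75 without its replicate 5.

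Il12a, the p35 chain of IL-12 (ENSMUSG00000027776, chromosome 3, 68690644 to 68698547, plus strand), was counted 13, 3 and 3 times in untreated and 20, 20 and 6 times in colitic Tmem173fl/fl libraries. These overlapped through untreated replicate 1, and the log2 difference was 0.94 (95% interval -0.63 to 2.51, adjusted p = 0.336) and 2.10 without that library (adjusted p = 0.0519). In Tmem173iΔmye mice Il12a was counted 2, 4 and 3 times without and 20, 5 and 11 times with DSS. These groups did not overlap, and the log2 difference was 2.09 (95% interval 0.40 to 3.77), with an unadjusted p of 0.0199 and an adjusted p of 0.215 by edgeR. It was 1.40 without colitic replicate 1 and 2.24 without colitic replicate 5. Between colitic genotypes it was -0.05 with a 95% interval of -1.51 to 1.41 (adjusted p = 0.976). That interval is wide in both directions, so a difference in Il12a between colitic genotypes was not detectable with these 3 libraries per group.

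Il23a, the p19 chain of IL-23 (ENSMUSG00000025383, chromosome 10, 128296139 to 128298752, minus strand), had the lowest counts of the cytokine chains. It was counted 9, 2 and 5 times in untreated and 3, 4 and 6 times in colitic Tmem173fl/fl libraries. In Tmem173iΔmye mice it was counted 3, 2 and 5 times without and 3, 2 and 4 times with DSS. All 4 groups overlapped, and no library held more than 9 counts. The log2 difference with DSS was -0.51 (95% interval -2.24 to 1.22) in Tmem173fl/fl and -0.06 (95% interval -1.97 to 1.86) in Tmem173iΔmye mice, and between colitic genotypes it was -0.35 (95% interval -2.12 to 1.41). The receptor chain of IL-23 thus rose in colitic Tmem173fl/fl mice while no change of its ligand chain was detectable.

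**Figure D2:**
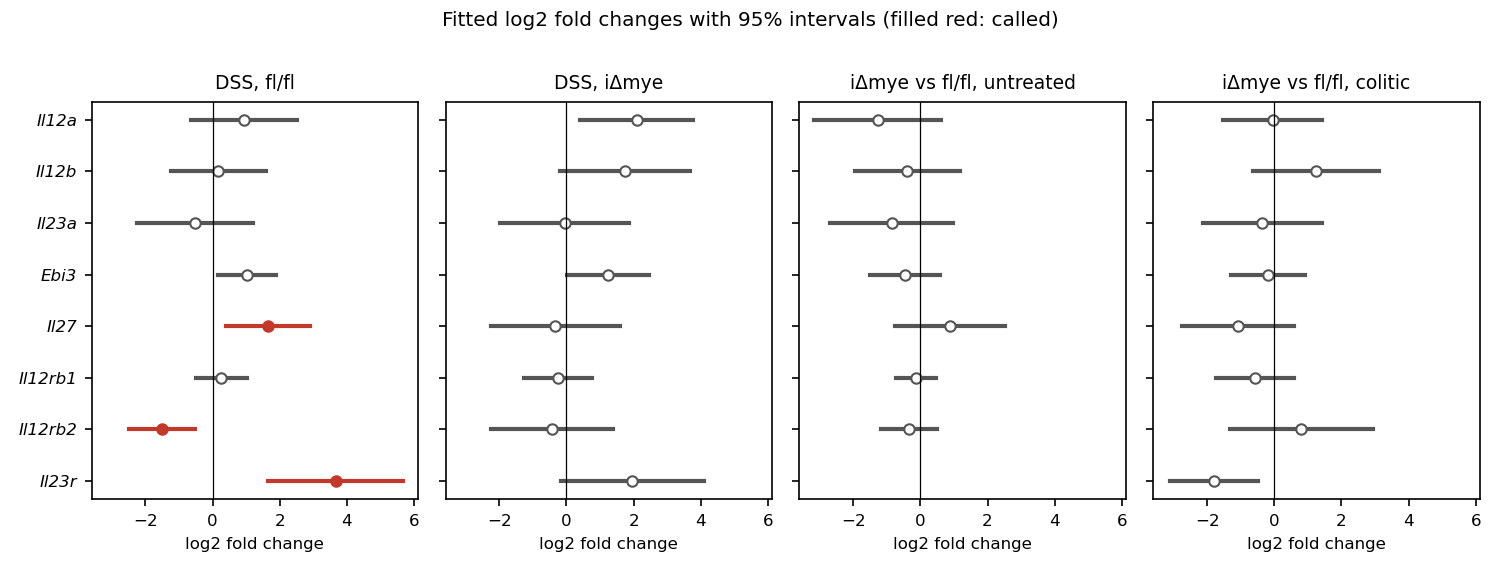
Fitted log2 fold changes (points) with 95% intervals (bars) of the 8 genes in the 4 comparisons of pairs of groups, with filled red points for genes called. Il23r and Il27 lie above 0 and Il12rb2 below 0 in the first panel, no gene is filled in the others, and Il23r is left out of the untreated genotype panel because both groups were at the floor; fitted values of Il23r with DSS depend on the prior count.

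Counted as a group, 0 of 8 members were called for DSS in Tmem173iΔmye mice, where 2.08% of all genes tested were called, and 2 members passed an unadjusted p of 0.05 against 15.6% of all genes. There 2 members had groups that did not overlap, where 21.5% of all genes did. The members' median log2 difference was 0.59, or 0.22 with Il23r at its bound, against 0.02 over all genes. Between untreated genotypes 0 members were called or passed an unadjusted p of 0.05. There edgeR called 0% of all genes, 2.99% had an unadjusted p of at most 0.05, and 0 members but 7.35% of all genes had groups that did not overlap. The median over the 7 members other than Il23r, which was at the floor in both groups, was -0.39 against -0.00 over all genes. Between colitic genotypes 0 members were called against 2.81% of all genes, the median was -0.27 against 0.02, and Il23r alone passed an unadjusted p of 0.05. For the interaction, with Il23r included in the fit, 0 members were called and 0 passed an unadjusted p of 0.05, against 2.55% and 18.1% of all genes. The effect of DSS in Tmem173fl/fl mice and the genotype difference in colitis were both read from the same colitic Tmem173fl/fl libraries, so these 2 comparisons are not independent.

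Per gene length, the order of the members changed with DSS. In untreated Tmem173fl/fl mice Il12rb1 was highest, at 0.969 ± 0.114 FPKM (fragments scaled to gene length and library total, SD, n = 3), followed by Ebi3 at 0.942 ± 0.319 FPKM and, without overlap with Ebi3, Il12rb2 at 0.447 ± 0.0795 FPKM. Il12b, Il12a, Il27, Il23a and Il23r followed, and each overlapped the next in its range. In colitic Tmem173fl/fl mice Ebi3 was highest, at 1.87 ± 0.423 FPKM, and did not overlap Il12rb1 at 1.14 ± 0.469 FPKM. Il27 at 0.829 ± 0.257 FPKM, Il12a at 0.483 ± 0.211, Il23r at 0.365 ± 0.120, Il12b at 0.329 ± 0.194, Il12rb2 at 0.153 ± 0.0627 and Il23a at 0.114 ± 0.0613 FPKM followed, each overlapping the next. In this group Il23r did not overlap Il12rb2, whereas in untreated Tmem173fl/fl mice Il12rb2 was above Il23r at 0.0247 ± 0.0427 FPKM in every library.

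In untreated Tmem173iΔmye mice the order ran from Il12rb1 at 0.886 ± 0.163 FPKM to Il23a at 0.0876 ± 0.0405 FPKM with each neighbour overlapping the next, and Il23r at 0.0237 FPKM lay below them all. In colitic Tmem173iΔmye mice Ebi3 was highest at 1.64 ± 1.01 FPKM, Il12b was next at 0.796 ± 0.700 FPKM and Il23a was lowest at 0.0850 ± 0.0268 FPKM, and every neighbour in the order overlapped the next. The spread within this group was wide, with Il12b from 0.121 to 1.52 FPKM.

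**Figure D3:**
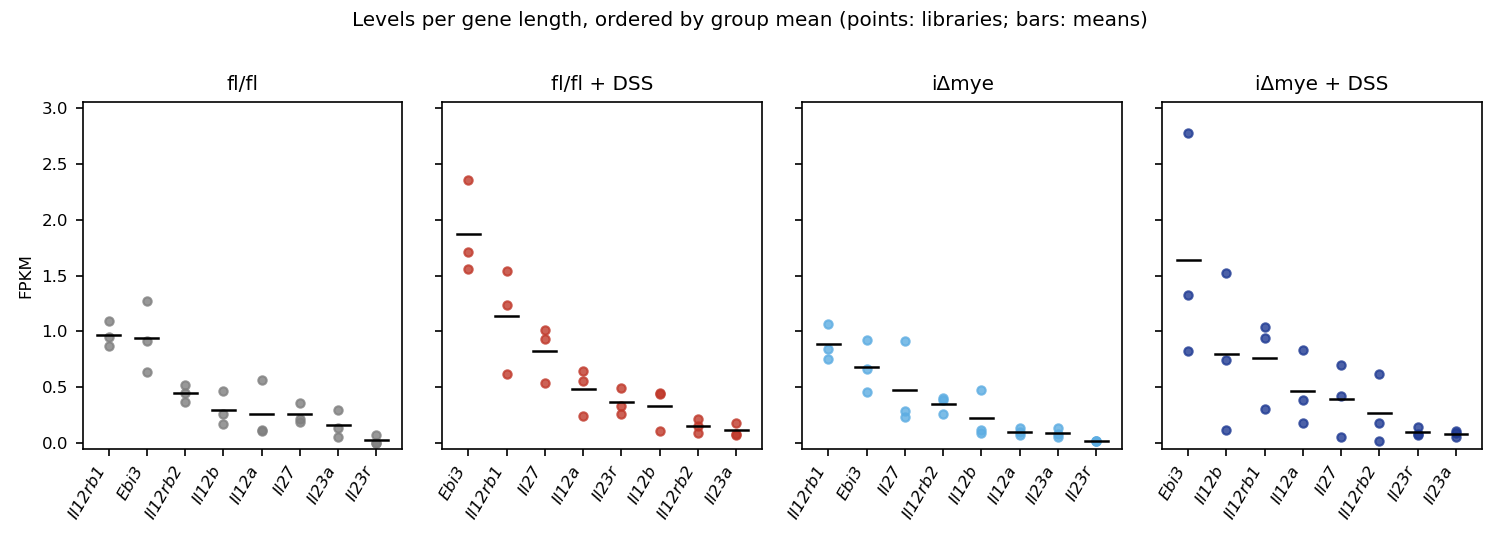
Levels in FPKM (linear axis, shared by the panels) of the 8 genes in each group, ordered from the highest to the lowest group mean, with a point for each library and a bar for the mean. Il23r is last at 0.0247 FPKM in untreated Tmem173fl/fl mice and at 0.365 FPKM in colitic ones, above Il12b, Il12rb2 and Il23a.

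Marker genes of the cells that make or read these cytokines moved too. Fewer cells of a type and less RNA per cell cannot be told apart in such libraries. Of 8 dendritic cell markers 4 rose and 1 fell with DSS in Tmem173fl/fl mice, where 14.9% of all genes tested rose and 7.61% fell. Those higher included Fscn1 (log2 fold change 3.02) and Ccr7 (2.72), of mature migrating dendritic cells, and Flt3 (1.99), their growth factor receptor. Xcr1, of the cross-presenting subset, fell by 1.80. The summed level of the 8 markers was 10.8 to 15.5 FPKM in untreated and 28.9 to 58.9 FPKM in colitic Tmem173fl/fl libraries. The rise of the sum lay in Fscn1 and Ccr7, together at 4.28 to 6.30 FPKM in untreated and 23.8 to 50.4 FPKM in colitic libraries. The other 6 markers summed to 9.22, 6.53 and 7.22 FPKM in untreated and 7.19, 8.49 and 5.06 FPKM in colitic libraries, which overlapped. In colitic Tmem173iΔmye libraries the whole list summed to 61.3, 20.7 and 12.2 FPKM in replicates 1, 2 and 5, in the same order as Il12b at 42, 24 and 4 counts. Macrophage and monocyte sums and T cell sums ran in that order too. The 6 markers other than Fscn1 and Ccr7 summed to 15.1, 8.73 and 3.77 FPKM. In colitic Tmem173fl/fl libraries the whole list summed to 56.4, 58.9 and 28.9 FPKM, beside 16, 18 and 3 Il12b counts. Untreated Tmem173iΔmye libraries lay at 10.7 to 13.3 FPKM, and no marker of this list was at 0 in any library. Whether dendritic cell content accounts for the Il12b values was not tested.

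Macrophage and monocyte markers summed to 112 to 144 FPKM in untreated and 310 to 424 FPKM in colitic Tmem173fl/fl libraries. Of these 9 markers 4 were called higher and 0 lower, beside 14.9% and 7.61% of all genes. In colitic Tmem173iΔmye libraries they summed to 296, 225 and 120 FPKM, the last within the untreated range of 116 to 168 FPKM. Of 7 neutrophil markers 7 rose with DSS in Tmem173fl/fl mice, beside 14.9% of all genes. Between colitic genotypes 4 of 7 were lower in the Tmem173iΔmye group, where 2.81% of all genes were called in either direction. The colitic Tmem173fl/fl group was the one in which Il23r and Il27 were highest. The part of these cells in these results was not tested.

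Of the 8 T cell markers 0 were called in any comparison, while 22.5% of all genes were called for DSS in Tmem173fl/fl mice. The T cell markers summed to 34.7 to 41.9 FPKM in untreated and 30.0, 40.8 and 16.2 FPKM in colitic Tmem173fl/fl libraries. The colitic range reached below the untreated one and overlapped it, and the library with the most Il23r, colitic replicate 2, had the highest T cell sum of its group. Replicates 1 and 3 of that group each held 12 Il23r counts at T cell sums of 30.0 and 16.2 FPKM. The highest T cell sums of all 12 libraries, 46.3 FPKM in untreated Tmem173iΔmye replicate 2 and 44.6 FPKM in colitic replicate 1, went with 1 and 3 Il23r counts. In colitic Tmem173iΔmye libraries the T cell sum was 44.6, 26.5 and 9.46 FPKM, in the same order as Il12rb2 at 33, 11 and 1 counts, whereas in colitic Tmem173fl/fl libraries the order of Il12rb2, at 15, 12 and 5 counts, was not that of the T cell sum. Of 6 NK cell and innate lymphoid cell markers 2 rose with DSS in Tmem173fl/fl mice, beside 14.9% of all genes. These were Il7r (2.45) and Gata3 (1.48), both of innate lymphoid and T cells. The list's sum was 2.02 to 2.15 FPKM in untreated and 3.89 to 10.3 FPKM in colitic libraries. The 5 markers other than Il7r summed to 1.48, 1.03 and 1.34 FPKM in untreated and 1.69, 3.07 and 1.31 FPKM in colitic libraries, which overlapped. The B cell sum was 103 FPKM in colitic Tmem173iΔmye replicate 1, the library with the most Il12b, Il12rb2 and pancreas reads, and 8.51 to 69.4 FPKM in the others. Whether these cells account for the family's values was not tested.

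Markers of the colon epithelium, which makes up much of the tissue, moved in the same comparison. Of 8 such markers 6 fell and 1 rose when Tmem173fl/fl mice had DSS, beside 7.61% and 14.9% of all genes. The median log2 fold change was -1.22, against 0.03 over all genes. Those lower included the adhesion gene Epcam (-1.21) and the chloride transporter gene Slc26a3 (-2.73), while the carbonic anhydrase gene Car1 rose by 1.63. The sum of the 8 markers was 5813 to 8236 FPKM in untreated and 3549 to 5560 FPKM in colitic Tmem173fl/fl libraries, which did not overlap. In Tmem173iΔmye mice 0 of 8 were called with DSS, beside 2.08% of all genes. The sums there were 7096 to 7734 FPKM without and 4630 to 7035 FPKM with DSS. Between colitic genotypes the median was 0.84, against 0.02 over all genes. Slc26a3 alone of the 8 was called (1.84, adjusted p = 0.0332), beside 2.81% of all genes. No marker of this list was at 0 in any library. The part of this shift in the family's values was not tested.

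**Figure D4:**
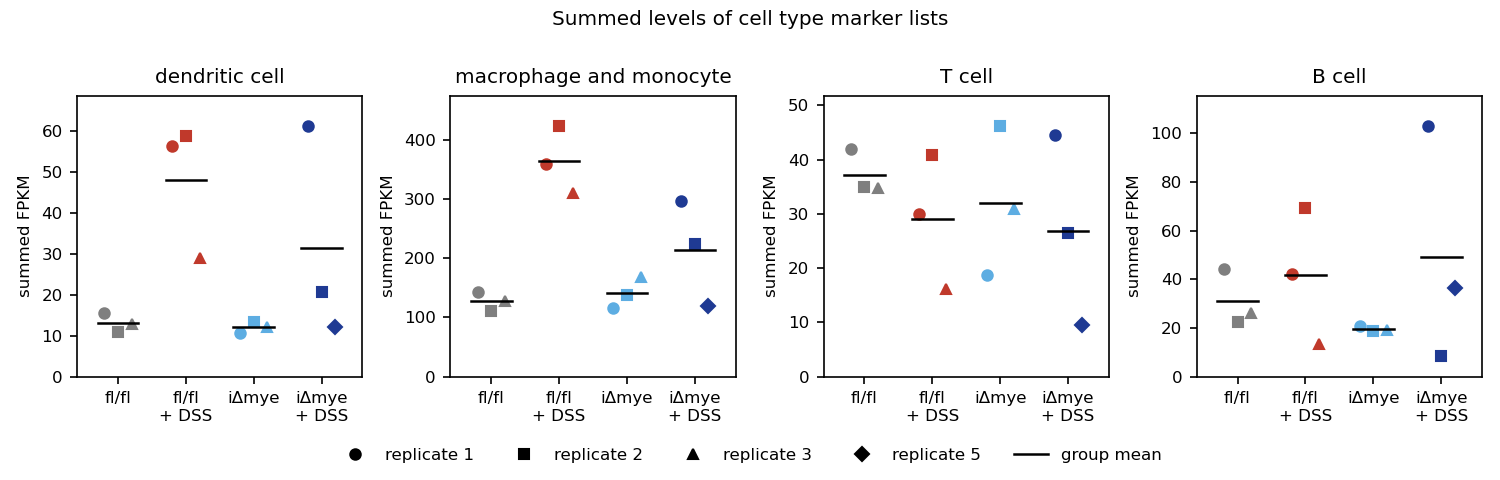
Summed FPKM (linear axes, a separate scale for each panel) of marker lists of dendritic cells, macrophages and monocytes, T cells and B cells by group, with a point for each library shaped by its replicate number and a line for the group mean. In colitic Tmem173iΔmye mice dendritic cell markers run from 61.3 in replicate 1 to 12.2 in replicate 5 and T cell markers from 44.6 to 9.46.

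The genes that carry the signal inward were followed next. Of the 9 receptor partners and signalling genes reported here 3 rose and 0 fell with DSS in Tmem173fl/fl mice, against the 14.9% and 7.61% of all genes. Socs3, which restrains STAT3 signalling, was counted 316, 247 and 275 times in untreated and 6596, 5819 and 4868 times in colitic libraries, a log2 fold change of 4.13 (SE 0.20, adjusted p = 9.27e-07). Il6st, which encodes gp130, the signalling chain of the IL-27 receptor, rose by 1.92 (adjusted p = 9.95e-06) and Stat3 by 1.06, or 0.95 without colitic replicate 3, below the fold limit of a call. Stat4, the factor downstream of IL-12, differed by 0.58 (adjusted p = 0.118) and Il27ra by 0.25 (adjusted p = 0.654), and neither was called in any comparison. In Tmem173iΔmye mice Socs3 (2.55, adjusted p = 0.0145) and Il6st (1.11, adjusted p = 0.0356) rose and 0 of the 9 fell, beside 2.08% of all genes called. Leaving out any untreated library of this genotype ended both calls (adjusted p 0.112 to 0.128 for Socs3 and 0.176 to 0.219 for Il6st), as leaving out colitic replicate 1 did for Il6st (0.0642). Between genotypes 0 of 9 were called, untreated or colitic, beside 0% and 2.81% of all genes.

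Of 12 regulators in cytokine-producing cells 3 rose and 1 fell with DSS in Tmem173fl/fl mice, where 14.9% of all genes rose and 7.61% fell, so that the list's counts lie near those of all genes. Those higher were Batf3, a factor of cross-presenting dendritic cells (2.02), Il10, which restrains IL-12 production (1.55, adjusted p = 0.0371), and Irf5, which activates p40 and p35 transcription in macrophages (1.33). The Il10 call was lost without untreated replicate 2 or 3 or colitic replicate 1 or 2 (0.0524 to 0.133). Irf1, an interferon-induced activator, fell by 1.30 (adjusted p = 0.00110). In the other comparisons 0 of 12 were called, beside 0% to 2.81% of all genes.

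Of 10 Th1 and type 1 output genes 4 fell and 1 rose when Tmem173fl/fl mice had DSS, beside 7.61% and 14.9% of all genes, and the median was -0.47 against 0.03 over all genes. Ifng, the cytokine IL-12 is known to induce, was counted 31, 15 and 31 times in untreated and 2, 13 and 0 times in colitic Tmem173fl/fl libraries and fell by 2.65 (SE 0.80, adjusted p = 0.0261). That call was lost without untreated replicate 1 (0.0777) or 3 (0.0794) or colitic replicate 1 (0.0790). The interferon-induced chemokine Cxcl9 fell by 3.04 (adjusted p = 0.00285), Cxcl10 by 2.08 and the granzyme gene Gzmb by 2.15, whereas the IL-18 receptor chain Il18rap rose by 2.46 (adjusted p = 3.24e-05). Tbx21, the Th1 master factor, differed by -0.54 (adjusted p = 0.302). Ifng and Il12rb2 were thus both lower in colitic Tmem173fl/fl libraries. In Tmem173iΔmye mice Ifng was counted 18, 47 and 18 times without and 7, 28 and 3 times with DSS, which overlapped, a log2 difference of -1.03 (adjusted p = 0.561). There Cxcl10 alone of the 10 was called, beside 2.08% of all genes, and fell by 1.22 (adjusted p = 0.0387). That call held in 1 of 6 fits that left out a library, the one without replicate 5. Between colitic genotypes Il18, an epithelial and myeloid cytokine that acts beside IL-12, was higher by 2.0 in Tmem173iΔmye mice (adjusted p = 0.0423), at 735, 1168 and 2723 counts against 533, 371 and 377. Without colitic Tmem173iΔmye replicate 5 the difference was 1.37 (adjusted p = 0.0384), and the call was lost without that group's replicate 2 (0.0933) or any colitic Tmem173fl/fl library (0.0985 to 0.136). The interaction of DSS and genotype was called for Il18 alone of the 10, beside 2.55% of all genes. Over 12 fits that each left out 1 library it ran from 1.48 to 2.42 (adjusted p 0.00645 to 0.109) and was called in 4.

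Of the 9 Th17 and type 3 output genes reported here 3 rose and 0 fell with DSS in Tmem173fl/fl mice, beside 14.9% and 7.61% of all genes. The IL-1 receptor gene Il1r1 was counted 338, 486 and 555 times in untreated and 4124, 5199 and 3260 times in colitic libraries and rose by 2.96 (adjusted p = 1.69e-06), and Rora, a factor of innate lymphoid cells, rose by 1.82 (adjusted p = 4.34e-05). Csf2, a cytokine of activated T and innate lymphoid cells, went from 0 to 1 counts in untreated libraries, at the floor, to 4 to 11 in colitic ones and was at least 1.79-fold higher (adjusted p = 0.0464), a call lost when any library was left out (0.0602 to 0.187). Like Il23r, Csf2 passed the filter on low values through the colitic Tmem173fl/fl group, where it was high. The median over these 9 genes was 1.82, or 0.54 with the genes at the floor set to their bounds.

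The cytokines that IL-23 is known to sustain were scarce. Il17a was counted 0, 1 and 0 times in untreated and 7, 11 and 0 times in colitic Tmem173fl/fl libraries (adjusted p = 0.0883), and at most 4 times in a Tmem173iΔmye library. Il22 was counted 0, 0 and 4 times in untreated and 10, 9 and 3 times in colitic Tmem173fl/fl libraries (adjusted p = 0.153). In Tmem173iΔmye mice Il22 was counted 3, 0 and 1 times without and 32, 30 and 3 times with DSS. The colitic mean, carried by replicates 1 and 2, was 7.99 times the floor, with an adjusted p of 0.0937 by edgeR. Colitic replicate 5 had the same count as untreated replicate 1. The highest Il22 counts thus came from colitic Tmem173iΔmye replicates 1 and 2, whose Il23r counts of 3 and 6 lay below every colitic Tmem173fl/fl library. Il17f had at most 10 counts in a library and was not called. Il1r1 rose in Tmem173iΔmye mice as well (1.49, adjusted p = 0.0114), differed between colitic genotypes by -1.28, lower in Tmem173iΔmye mice (adjusted p = 0.0291), and its DSS response differed between genotypes by -1.39 (adjusted p = 0.0173). The DSS call in Tmem173iΔmye mice was lost without any of the untreated libraries (0.107 at most), that between colitic genotypes without colitic Tmem173iΔmye replicate 2 or any colitic Tmem173fl/fl library (0.0718 to 0.123), and that of the interaction without untreated Tmem173fl/fl replicate 1 (0.0517). Between untreated genotypes 0 genes of these lists were called by edgeR.

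**Figure D5:**
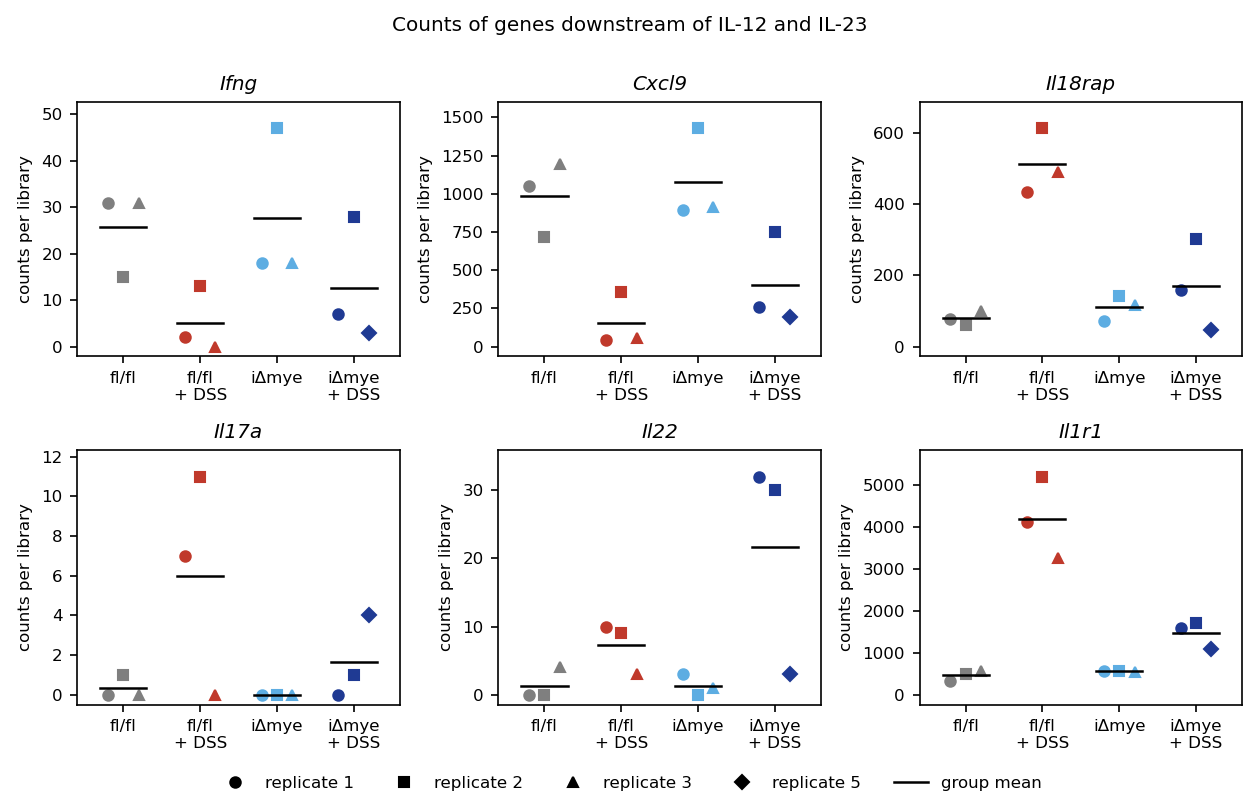
Counts per library (linear axes, a separate scale for each gene) of Ifng, Cxcl9 and Il18rap of the type 1 list and Il17a, Il22 and Il1r1 of the type 3 list, with a point for each library shaped by its replicate number and a line for the group mean. Ifng and Cxcl9 lie lower in colitic than in untreated Tmem173fl/fl libraries, and Il22 reaches 32 and 30 counts in colitic Tmem173iΔmye replicates 1 and 2 and 3 in replicate 5.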

How the data were processed

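Polyadenylated RNA of whole colon was sequenced in 12 mice, 3 per group, with group and replicate number read from each title. For each gene the authors deposited raw counts and FPKM in every library, under Ensembl IDs of GRCm38 (mm10). The submitters' processing notes name CASAVA 1.8, fastp, HISAT2 2.0.5, featureCounts 1.5.0-p3 and DESeq2 1.20.0, with no role or order given. The table also holds the authors' group means, log2 fold changes, p-values and adjusted p-values, which were not used. Here, the genes with at least 0.1 FPKM in at least 3 libraries were tested on the counts in edgeR 4.0.16 (R 4.3.3). The test was glmQLFTest with TMM scaling, and it was tried on simulated data with known fold changes. Genes as scarce as Il23a were not among those changed there. Each pair of groups was fitted alone, and the interaction used all 12 libraries. Adjusted p-values are Benjamini-Hochberg over all 24102 genes tested. SE is the log2 fold change divided by the square root of F, and intervals cover 95%. The floor was 3 counts per library, and where all of a group lay at or below it the fold is a bound. That bound is the other group's mean over the floor and makes no allowance for spread. CPM values are counts scaled by TMM over the 12 libraries. Libraries of a group differed by more than sampling noise, at 29.0 to 117 chi-square per degree of freedom.

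The named genes were the 8 members, further fixed genes of the pathway and design, up to 3 called genes of largest change per list and comparison, and the 3 genes most correlated with each member of at least 10 counts on average, to which Stat3, Irf1, Cxcl10 and Gzmb, and single markers were added after their values were seen. A gene of the signalling list and a gene of the type 3 list are not reported here and were left out of their lists' counts and median after those had been computed. The members and lists were chosen with earlier results of these data known. Alternatives were other scalings, tools (DESeq2 1.42.0, limma 3.58.1 on log2(FPKM + 0.1) and log2(FPKM + 1)), filters, thresholds, 1 fit of all libraries, a block on replicate number, leaving out each library, and male-pattern libraries alone. The last, the left-out libraries for list genes and the sums of dendritic cell markers without Fscn1 and Ccr7 and of NK cell markers without Il7r were added after seeing the data.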

Additional observations from a re-analysis of the deposited data

How the results depend on the processing

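The count of 3 members called for DSS in Tmem173fl/fl mice became 0 with limma on log2(FPKM + 1), whose pseudocount lies above most of these levels, 1 in a single fit of all 12 libraries, 1 among male-pattern libraries alone (without untreated replicate 3) and 1 to 2 when any library was left out. Il23r was called in 17 of 18 alternatives, Il12rb2 in 11 of 18 and Il27 in 5 of 17, where the male-pattern fit and that without untreated replicate 3 are the same fit. These tallies include adjusted p alone and unadjusted p with the fold limit. Both are looser thresholds on the main fit, which any gene called there passes by construction. At an unadjusted p of at most 0.05 with the same fold limit 2 members passed for DSS in Tmem173iΔmye mice and 1 between colitic genotypes. Rank by level was the same in TPM in every group. The filter filterByExpr left 27 of 40 member results testable, and 1 fit of all libraries is already the interaction's own fit.

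Same-numbered libraries correlated at -0.0805 to 0.108 in their deviations from the group means. That gives no sign of pairing by number but cannot exclude it. With the replicate block 2 members were called for DSS in Tmem173fl/fl mice, where Il27 reached an adjusted p of 0.0863, and 0 in the other comparisons. Under the block the difference with DSS in Tmem173iΔmye mice turned to 0.15 for Il23a, 0.0903 for Il27, 0.29 for Il12rb1 and 0.0505 for Il12rb2, and Il23r between untreated genotypes to 0.26, as it did to 0.0405 with limma on log2(FPKM + 0.1). None of these was called, and the cause was not tested.

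Among male-pattern libraries the difference with DSS in Tmem173iΔmye mice turned to 0.18 for Il23a, 0.32 for Il12rb1 and 0.26 for Il12rb2, that between untreated genotypes to 0.41 for Il12b and 3.07 for Il23r, and that between colitic genotypes to 0.0553 for Il12a and 0.14 for Ebi3. Leaving out 1 library turned the sign of values that were not called. For DSS in Tmem173fl/fl mice Il12b ran from -0.12 to 0.67, Il23a from -0.99 to 0.18 and Il12rb1 from -0.0546 to 0.52. For DSS in Tmem173iΔmye mice Il27 ran from -0.99 to 0.54, Il23a from -0.31 to 0.36, Il12rb1 from -0.51 to 0.17 and Il12rb2 from -1.86 to 0.18. Between untreated genotypes Il12b ran from -1.48 to 0.10 and Il23r from -0.65 to 3.09. Fitted values of Il23r between untreated genotypes compare groups at the floor, depend on the prior count and are no measure of a fold, those of 3.07 and 3.09 being against 0 counts. Between colitic genotypes Il12a ran from -0.75 to 0.34, Ebi3 from -0.79 to 0.14, Il23a from -0.57 to 0.13 and Il12rb2 from -0.66 to 1.36. For the interaction Il23a ran from -0.18 to 0.98, Ebi3 from -0.30 to 0.59 and Il12rb2 from -0.29 to 1.69. Depth limits Il23a and Il23r most, since 3 counts in a library lie at or above many of their values.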

Other observations

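For the 4 members with at least 10 counts on average, the genes closest in log2(CPM + 0.5) over the 12 libraries were looked up among 14558 genes with a mean of at least 1 FPKM, as a description in which all points share their library, its depth and its cell make-up. Il12rb1 was closest to the immunoglobulin segment Ighv10-1 (Pearson r = 0.965), Il2rb, a chain of the IL-2 and IL-15 receptors (0.914), and Cd4, the T helper cell co-receptor (0.896). Il12rb2 was closest to 9930111J21Rik2 (0.918), the lipid amidase Naaa (0.898) and Itgax, the CD11c integrin of dendritic cells (0.898). Both receptor chains thus had leukocyte genes among their nearest 3. Ebi3 was closest to the adaptor Sh3bp2 (0.967), the pseudogene Hmgb1-ps8 (0.954) and the cilium gene Tctn1 (0.948). Il12b was closest to Arhgap27os3 (0.92), Hpgds, a prostaglandin D synthase (0.893), and Klra2, a receptor of the Ly49 family (0.891).

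Lyz2, the gene that drives the Cre, was lower in untreated Tmem173iΔmye than in untreated Tmem173fl/fl mice (log2 difference -1.01), with an unadjusted p of 7.53e-04 and an adjusted p of 1 by edgeR. With DSS it rose by 1.25 in Tmem173fl/fl (adjusted p = 0.00468) and by 1.66 in Tmem173iΔmye mice (adjusted p = 0.00895), and the second call was lost without any untreated library of that genotype (0.0589 to 0.101). Tmem173 rose by 1.07 when Tmem173fl/fl mice had DSS (adjusted p = 0.00256), or 0.86 without untreated replicate 2, below the fold limit of a call, and was higher by 0.95 in Tmem173iΔmye mice, where the adjusted p was 0.135.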
